A study of Mus musculus with 15 samples.

Results

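The genes described here are 6 signal transducers and activators of transcription (Stat2, Stat3, Stat4, Stat5a, Stat5b and Stat6) and 3 genes of the suppressor of cytokine signalling family (Socs1, Socs3 and Cish). They were taken by symbol from a table of 56979 gene identifiers, and all 9 symbols matched a single identifier each. The table holds RNA sequencing of wild type mouse bone marrow cells in 15 libraries, 3 in each of 5 groups. Bone marrow-derived macrophages (BMDM) made up Control (vehicle), LPS (lipopolysaccharide, a bacterial outer membrane component that activates macrophages) and LPS_NZM (LPS and NZM). Cells labelled BMSC made up Aged, whose treatment label is H2HO, and Aged_NZM, whose label is H2HO and NZM. NZM followed a pretreatment with the model drug, LPS in the BMDM and H2HO in the BMSC, and the labels explain neither NZM nor H2HO. No ages, doses, times or strains are given in the sources used here.

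STAT proteins are latent transcription factors that Janus kinases (JAKs) phosphorylate on cytokine receptors, after which they dimerise, enter the nucleus and bind DNA. The transcripts they induce include Socs1, Socs3 and Cish, whose proteins bind receptors or JAKs and switch the signal off again. In macrophages STAT2 is a subunit of the interferon-activated complex ISGF3, STAT3 is known for signals of interleukin-6 and interleukin-10, and STAT6 for those of interleukin-4 and interleukin-13. STAT4 is known best from T and NK cells under interleukin-12, and STAT5A and STAT5B from cytokines such as GM-CSF. Activation of STAT proteins is by phosphorylation, which transcript levels do not measure.

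The start-site sequences of the 3 feedback genes are shown because each holds a match to a STAT or interferon motif. They come from RefSeq (build GRCm38.p6, an older build than the GRCm39 named in the submitters' processing notes). A window of 300 bases, 250 before and 50 after the annotated start, was searched on both strands for TTCNNNGAA and TTCNNNNGAA, the palindromic STAT motif with 3 or 4 bases between its arms, and for GAAANNGAAA, an interferon response motif. Positions count from 1 at the first transcribed base and from -1 at the base before it. Capitals mark the fixed letters of the matches.
Cish, chr9:107296529-107296688, plus strand, positions -130 to 30: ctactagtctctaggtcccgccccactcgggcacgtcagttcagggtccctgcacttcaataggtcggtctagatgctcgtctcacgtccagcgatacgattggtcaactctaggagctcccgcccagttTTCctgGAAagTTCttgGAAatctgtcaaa
Socs3, chr11:117969367-117969616, minus strand, positions -250 to -1: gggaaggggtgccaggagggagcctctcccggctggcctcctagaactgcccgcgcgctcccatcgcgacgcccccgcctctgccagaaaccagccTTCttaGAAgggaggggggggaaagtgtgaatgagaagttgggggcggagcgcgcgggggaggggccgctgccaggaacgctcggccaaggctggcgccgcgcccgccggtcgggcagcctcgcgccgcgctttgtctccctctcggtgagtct
Socs1, chr16:10785537-10785786, minus strand, positions -250 to -1: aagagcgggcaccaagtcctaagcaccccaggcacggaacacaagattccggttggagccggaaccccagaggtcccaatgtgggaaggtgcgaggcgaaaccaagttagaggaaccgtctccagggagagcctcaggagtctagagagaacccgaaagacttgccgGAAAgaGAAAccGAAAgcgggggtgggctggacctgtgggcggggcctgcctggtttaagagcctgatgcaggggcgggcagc
Cish held 2 matches to TTCNNNGAA, at positions 1 to 9 (chr9:107296659-107296667) and 12 to 20 (chr9:107296670-107296678), just inside the transcript. Socs3 held 1 such match, from -154 to -146. Socs1 held GAAANNGAAA at -83 to -74 and at -77 to -68, and these matches overlap.

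Among all 32851 RefSeq windows, 8.3% held TTCNNNGAA and 0.457% held it at least 2 times. TTCNNNNGAA was in 6.95% of windows. GAAANNGAAA was in 3.44%, and in 0.225% at least 2 times. The 9 genes had 12 windows, since Stat4, Stat5a and Stat5b each have alternative starts, and 5 of the 12 held a match. Besides the 3 feedback genes these were Stat2, with TTCNNNNGAA at -210 to -201 and GAAANNGAAA on the opposite strand at -222 to -213, and the second window of Stat4, with GAAANNGAAA at -97 to -88. The windows of Stat3, Stat5a, Stat5b and Stat6 held none of the 3 motifs. The share of all windows with any of the 3 motifs was not counted, so 5 of 12 has no background here. A match describes the letters and does not show binding.

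**Figure D1:**
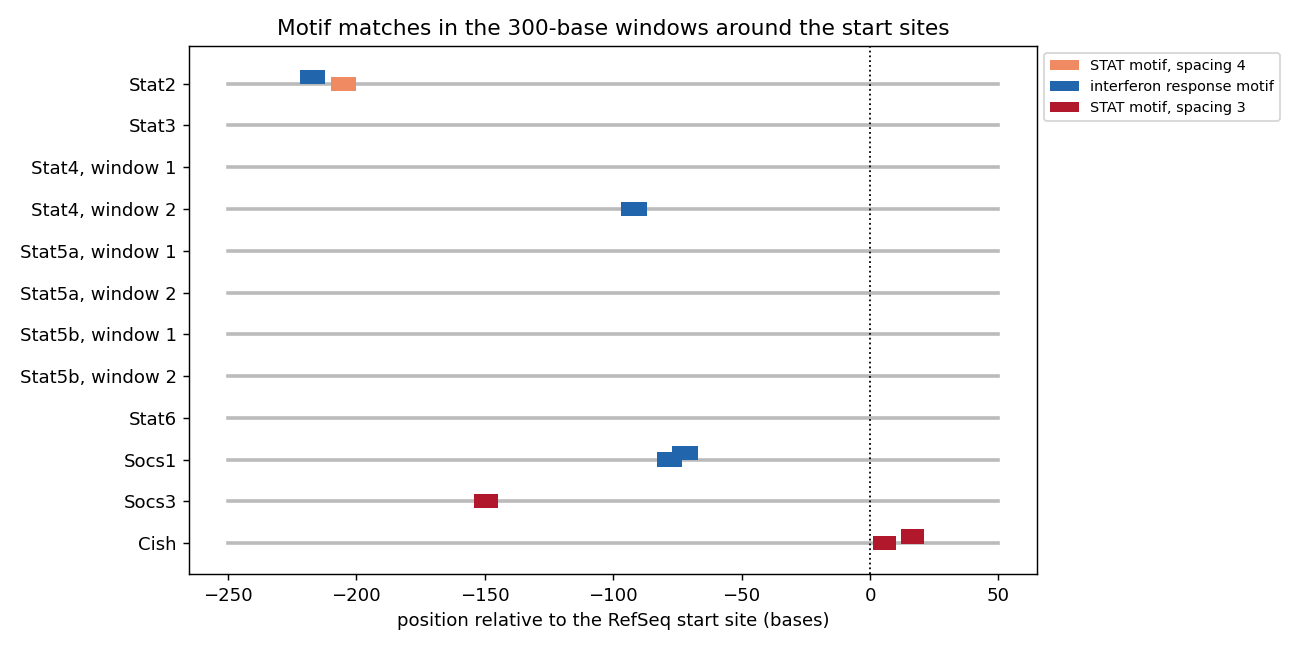
Positions of motif matches (coloured boxes) in the 12 RefSeq windows of the 9 genes, with the position relative to the start site in bases on the horizontal axis and 1 window per line. The matches of Cish lie at 1 to 20, just after the start, while those of Socs3 (-154 to -146) and Socs1 (-83 to -68) lie before it. Overlapping or neighbouring boxes are raised for visibility.

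Levels are in TPM, the length-corrected share of a transcript in its library, scaled to a fixed total. Each library's total was 1000000 within rounding, and 21360 to 23398 identifiers were above 0, so the depth is unknown. The labels number the replicates without saying whether they were separate animals or cultures, and p-values measure only the spread between libraries, which may be technical. Macrophage markers summed to 22035 to 28945 TPM in the BMDM libraries, with all 8 at a mean of at least 1 TPM in each group. In BMSC they summed to 107.3 to 129.5 TPM, with Adgre1 at 0 in every Aged library and Itgam at 0 in every Aged_NZM library. Stromal markers summed to 1609 to 1686 TPM in Aged and 4842 to 4948 TPM in Aged_NZM. Of these, Lepr (0.60 and 0.21 TPM), Nt5e (2.78 and 3.71 TPM), Eng (2.97 and 3.51 TPM) and Thy1 (4.51 and 12.5 TPM) were low. Lepr, Nt5e, Eng and Col1a1 in both groups were below their means in Control BMDM. For Col1a1 these were 308.8 TPM in Aged and 863.2 TPM in Aged_NZM, against 1303 TPM in Control. Thy1, Col1a2, Pdgfrb and Ly6a were below their Control means in Aged only. Col3a1, Pdgfra and Cxcl12 were above theirs in both groups. The BMDM libraries also held stromal markers (2589 to 3381 TPM) and neutrophil markers (1605 to 2508 TPM). Neutrophil markers summed to 1605 to 1791 TPM in Control, 2283 to 2508 TPM in LPS and 2043 to 2435 TPM in LPS_NZM. Mast cell and basophil markers summed to 4.58, 513.9 and 184.2 TPM in Control replicates 1 to 3, a wide split, and to 207.5 to 232.8 TPM in LPS and 113.3 to 199.9 TPM in LPS_NZM. Leaving out Control replicate 1, 2 or 3 left 9 of the 9 genes called in LPS against Control, and 9, 8 and 9 in LPS_NZM against Control. With all libraries 80.8% and 47.7% of all tested genes were called in these comparisons, so these counts by themselves say little. Control replicate 3 also stood apart in Socs3, whose values with and without it are given below. Fewer cells of a type and less RNA per cell cannot be told apart in such libraries, and the part of other cell types in the results below was not tested.

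**Figure D2:**
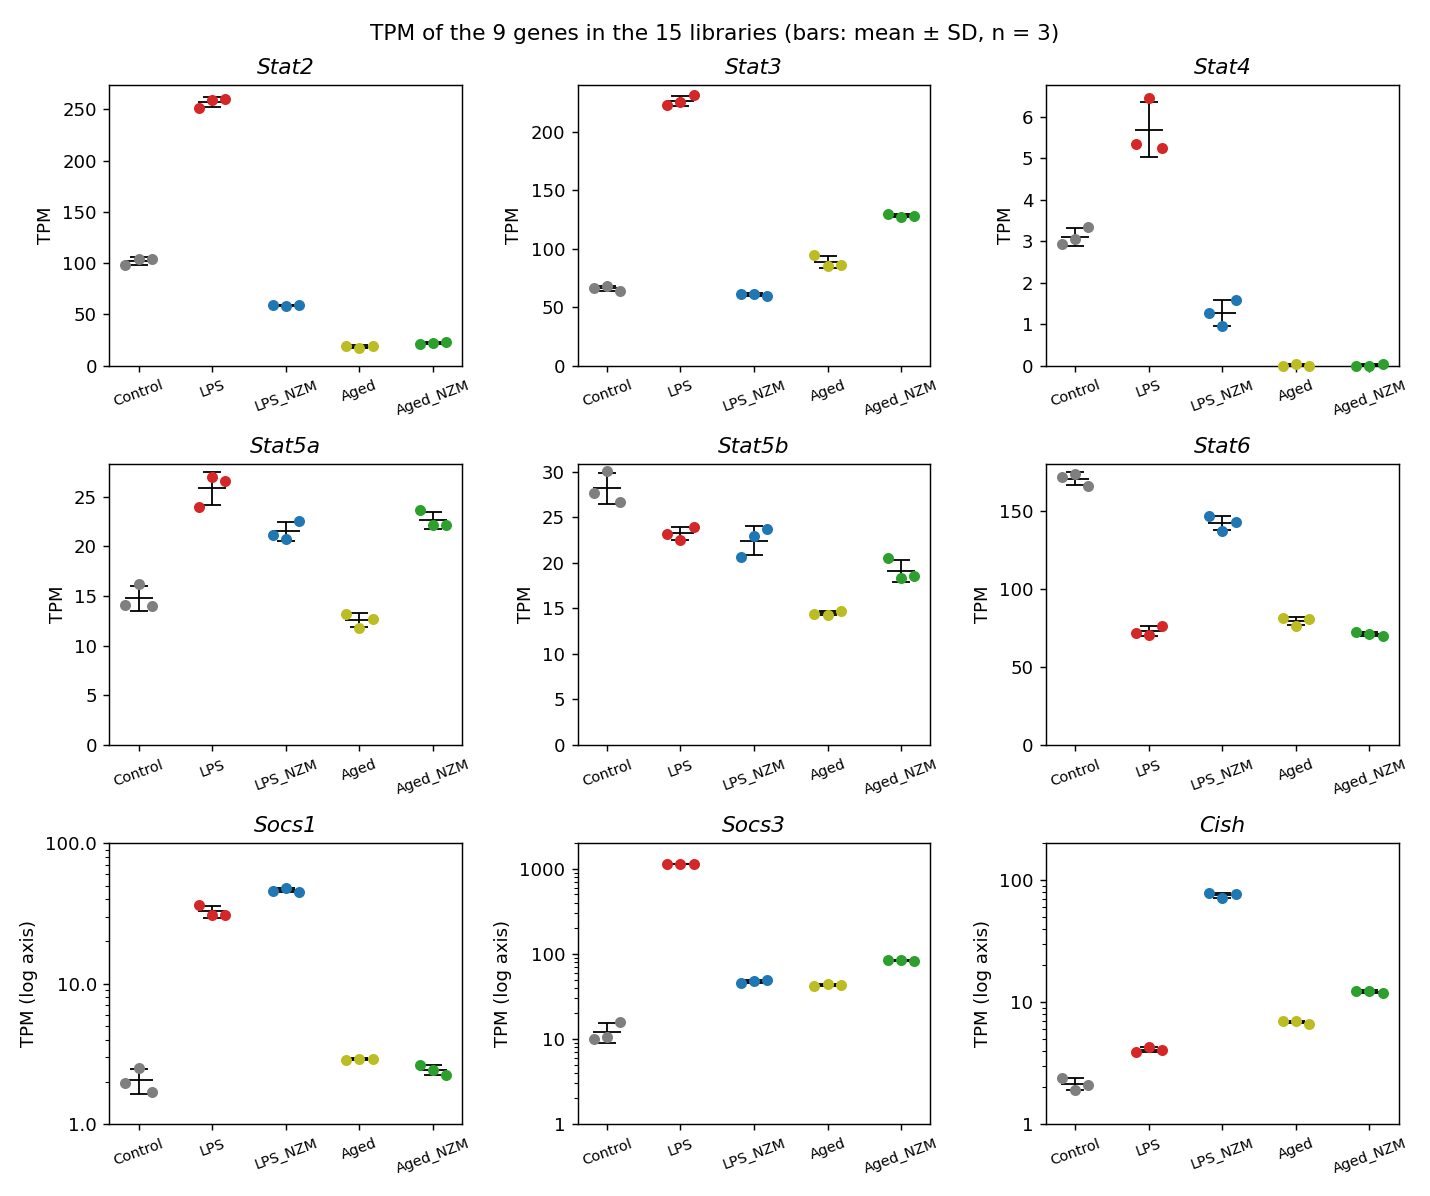
TPM of each of the 9 genes (vertical axes, logarithmic for Socs1, Socs3 and Cish) in the 15 libraries, grouped along the horizontal axis, with mean ± SD bars over 3 libraries. Socs3 stands at 1132 to 1148 TPM in LPS alone and at most 84.7 TPM elsewhere, and Cish stands at 70.8 to 77.8 TPM in LPS_NZM and at most 12.4 TPM elsewhere.

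LPS against Control addresses how the model drug moved these genes in macrophages. Stat2, Stat3, Stat4, Stat5a and all 3 feedback genes rose, and Stat5b and Stat6 fell. Changes were tested with limma on log2(TPM + 1) across all genes with at least 1 TPM in at least 3 libraries of the fit, and a gene was called at a Benjamini-Hochberg adjusted p under 0.05. All 9 genes were called, beside 80.8% of the 14486 tested (15.2% higher and 65.6% lower), so the number called by itself says little. Their median log2 change was 0.77 and that of all tested genes was -0.48. Because TPM are shares, each change was also taken after subtracting from every library its median over the tested genes (centring). Centred, 8 of the 9 were called higher and 1 lower, against 36.5% and 29.1% of tested genes. At an absolute log2 change of at least 1, 5 of the 9 were called, beside 24.3% of tested genes. All 9 were without overlap between the groups, as were 81.8% of tested genes.

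Stat3 read 66.2, 68.4 and 64.1 TPM in Control replicates 1 to 3 and 223.0, 225.2 and 231.6 TPM in LPS. Every LPS library was above every Control library, by a log2 change of 1.76 (SE 0.03, limma adjusted p = 3.21e-11). Stat2 read 97.8, 103.9 and 104.5 TPM in Control and 251.5, 258.9 and 260.2 TPM in LPS, again without overlap (log2 change 1.32, SE 0.03). Stat5a rose from 14.1, 16.2 and 13.9 to 23.9, 27.0 and 26.6 TPM (log2 change 0.77, SE 0.07). Its neighbour and near-identical paralog Stat5b read 27.7, 30.1 and 26.7 TPM in Control and 23.2, 22.6 and 24.0 TPM in LPS. Reads shared by these paralogs can be split between them by the quantification, so their separate values are less certain than the others. The fall of Stat5b (log2 change -0.27, SE 0.06, limma adjusted p = 0.0031) turned to a rise of 0.28 after centring. Relative to the median tested gene, Stat5b was thus higher in LPS, not lower.

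Stat6 moved the other way. It was the most abundant of the 6 STAT genes in Control, at 172.3, 174.1 and 166.2 TPM, and read 71.8, 70.6 and 76.5 TPM in LPS. The groups did not overlap, and the fall (log2 change -1.22, SE 0.04, limma adjusted p = 1.37e-09) was -0.67 after centring. Stat4 was low in all BMDM libraries, at 2.93, 3.05 and 3.34 TPM in Control and 5.36, 6.45 and 5.25 TPM in LPS (log2 change 0.70, SE 0.13). Markers of T and NK cells, which express Stat4, summed to 8.13 to 26.4 TPM in Control and 2.17 to 10.6 TPM in LPS, with 5 and 3 of the 9 markers at a mean of at least 1 TPM, and none at 0 in all 3 libraries. Their sums were thus not higher in LPS, where Stat4 was, and their part in the Stat4 level was not tested.

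The feedback gene Socs3, whose protein blocks signalling through the interleukin-6 receptor chain gp130, read 10.1, 10.6 and 15.9 TPM in Control. In LPS it read 1136, 1132 and 1148 TPM. This was a 93.3-fold difference of means (log2 change 6.46, SE 0.13, limma adjusted p = 4.43e-11), and Control replicate 3 was the highest of its group. Without that library the log2 change was 6.65, and all 9 genes were still called, where 80.8% of tested genes were called with all libraries. Socs1, a brake on interferon and interleukin-4 signals, read 1.96, 2.51 and 1.70 TPM in Control against 36.4, 30.6 and 30.9 TPM in LPS (15.9-fold, log2 change 3.47, SE 0.10). Cish, best known as a target of STAT5, rose less, from 2.38, 1.90 and 2.10 TPM to 3.87, 4.30 and 4.05 TPM (log2 change 0.70, SE 0.08). None of the 3 overlapped between the groups.

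The rest of the pathway is given from lists of genes upstream and downstream of the STATs. All 4 JAK genes rose with LPS. Jak2, the kinase used by many single-chain and gp130-family receptors, rose from 24.7 ± 1.26 to 230.4 ± 5.92 TPM (SD, n = 3), and Tyk2 from 42.8 ± 2.41 to 84.4 ± 2.03 TPM. Jak1 was nearly level at 137.2 ± 5.01 and 152.3 ± 2.65 TPM (log2 change 0.15, limma adjusted p = 0.0018). Of 15 tested cytokine ligands of the pathway 13 rose and 0 fell, among them Il6 (2.41 to 629.0 TPM on average) and Il10 (8.87 ± 0.89 to 311.9 ± 6.19 TPM). Of 28 tested receptor chains 12 rose and 10 fell. Il10ra rose from 58.5 to 112.6 TPM and Il4ra from 104.4 to 211.7 TPM, while Il6st, which encodes gp130, fell from 80.4 to 40.1 TPM.

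Among targets, all 20 interferon genes listed as targets of the STAT2 complex rose with LPS, with a median log2 change of 3.22. Of 18 STAT3 and interleukin-10 targets 15 rose and 2 fell (median 1.27). Il1rn, the interleukin-1 receptor antagonist, reached 2040 ± 11.3 TPM from 65.5 ± 5.52 TPM. Of 11 STAT5 targets 7 rose and 4 fell (7 and 3 centred). Pim1, a serine/threonine kinase, rose by a log2 change of 3.89, and Ccnd1, which encodes cyclin D1, fell by 3.81 on the log2 scale. Of 18 STAT6 targets 7 rose and 7 fell (median 0.20). The chemokine Ccl22 rose by a log2 change of 5.24, and Pparg, a nuclear receptor, fell by 3.21 on the log2 scale. These medians stand beside -0.48 over all tested genes. After centring the STAT6 targets split into 13 rises and 5 falls, the STAT3 targets into 17 and 0, and the receptor chains into 17 and 6. Of 5 other Socs genes 0 rose and 4 fell (1 and 3 centred), with Socs2 going from 3.47 to 2.41 TPM, a fall that was not called after centring (log2 change 0.16, limma adjusted p = 0.13). Among 10 other brakes on the pathway 4 rose and 4 fell (6 and 3 centred). The phosphatase gene Ptpn1 was 1 of those that rose (85.0 to 305.1 TPM). Summed markers of dendritic cells (5.33 to 16.5 TPM in Control, 25.5 to 33.9 TPM in LPS) were higher in LPS without overlap. So were those of B cells (47.0 to 54.0 and 58.5 to 91.3 TPM) and neutrophils. Those of macrophages, stromal and endothelial cells were lower. By called rises and falls, dendritic cell markers gave 1 and 0 (1 and 0 centred), and B cell markers 1 and 1 (3 and 1). Neutrophil markers gave 4 and 3 (6 and 3 centred), and macrophage markers 3 and 5 (4 and 3). Stromal markers gave 1 and 6 (8 and 1 centred), and endothelial markers 1 and 2 (3 and 0). Ccr7 went from 1.46 to 21.7 TPM on average and held most of the dendritic cell sum in LPS. Of the same list, Zbtb46 averaged 1.98 and 1.43 TPM and Siglech 5.29 and 4.10 TPM. Flt3, Xcr1 and Clec9a averaged below 1 TPM in both groups. Among B cell markers Ighm went from 43.4 to 70.6 TPM on average, while Cd79b fell from 5.62 to 1.80 TPM.

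LPS_NZM against LPS asks how NZM moved the genes in LPS-pretreated macrophages. Stat2, Stat3, Stat4, Stat5a and Socs3 were lower with NZM, while Stat6, Socs1 and Cish were higher. Thus 8 of 9 were called, beside 77.3% of all 14486 tested genes (60.4% higher and 16.9% lower), and the tested genes had a median log2 change of 0.40. The median of the 9 genes was -0.25. After centring, 2 genes were called higher and 6 lower, against 29.8% and 35.3% of tested genes. At an absolute log2 change of at least 1, 5 were called, beside 22.3%. The TPM of 8 genes did not overlap between the groups, as was so for 79.8% of tested genes. These comparisons share the LPS libraries with those of LPS against Control, so opposite signs in both are not independent.

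Cish had the largest rise among the 9. It read 77.8, 70.8 and 76.1 TPM in LPS_NZM against 3.87, 4.30 and 4.05 TPM in LPS, an 18.4-fold difference (log2 change 3.90, SE 0.08, limma adjusted p = 3.52e-11). The lowest LPS_NZM library was far above the highest LPS library, and the rise after centring was 3.44. Socs3 read 44.9, 47.6 and 48.8 TPM in LPS_NZM, 24.2-fold below its LPS level (log2 change -4.57, SE 0.13, limma adjusted p = 4.89e-10). Socs1 stayed high and rose somewhat further, to 45.7, 48.0 and 45.0 TPM (log2 change 0.49, SE 0.10, limma adjusted p = 0.0012). This difference did not overlap in TPM, but it was 0.03 after centring (limma adjusted p = 0.82). So the 3 feedback genes, all higher with LPS, parted under NZM, with Socs3 lower, Cish higher and Socs1 dependent on the scaling.

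Stat2 and Stat3 were the most lowered of the STAT genes in absolute TPM. Stat2 read 59.2, 58.0 and 59.1 TPM with NZM (log2 change -2.11, SE 0.03, limma adjusted p = 9.55e-12), and Stat3 read 61.5, 61.3 and 59.5 TPM (log2 change -1.88, SE 0.03). Neither gene overlapped between the groups. Stat4 read 1.28, 0.96 and 1.58 TPM (log2 change -1.56, SE 0.13), while T and NK cell markers summed to 10.2 to 26.7 TPM in the same libraries, above their sums in LPS of at most 10.6 TPM except in the lowest library. Stat6 rose to 146.8, 137.6 and 143.1 TPM, above every LPS library and below every Control library (log2 change 0.96, SE 0.04, limma adjusted p = 7.71e-09). After centring its rise was 0.49.

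As deposited, the Stat5 paralogs changed by less. Stat5a read 21.2, 20.7 and 22.6 TPM (log2 change -0.25, SE 0.07, limma adjusted p = 0.0087), below every LPS library. Stat5b read 20.7, 23.0 and 23.7 TPM and overlapped LPS, with a log2 change of -0.05 (95% interval -0.19 to 0.09, limma adjusted p = 0.49). Relative to the median tested gene, which rose, Stat5a was lower by -0.72 and Stat5b by -0.51, and both were called. On that scale both changed by more than Stat6 (0.49). Beside the 18.4-fold rise of Cish, a textbook STAT5 target, the transcripts of the Stat5 genes thus differed by log2 changes of -0.25 and -0.05 as deposited. After centring these were -0.72 and -0.51, beside a rise of 3.44 for Cish.

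Upstream of the STATs, 0 of 15 tested ligands rose and 13 fell with NZM. Il6 fell to 9.55 ± 1.29 TPM and Il10 to 30.2 ± 4.82 TPM, both still above their Control means. Of the 4 JAK genes 3 fell, and all 4 after centring. Jak2 went to 80.2 ± 3.37 TPM (log2 change -1.51) and Jak1 read 147.8 ± 2.55 TPM (log2 change -0.04, limma adjusted p = 0.25). Of 28 tested receptor chains 10 rose and 11 fell (9 and 17 centred). Il6st rose from 40.1 to 216.4 TPM (log2 change 2.40, SE 0.04), Il4ra fell from 211.7 ± 5.77 to 146.0 ± 1.18 TPM, and Il10ra fell from 112.6 ± 1.64 to 76.1 ± 2.51 TPM. The interleukin-4 gene itself was at or below a mean of 1.37 TPM in every group.

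Downstream, the target lists moved in different directions. The lists share some genes, such as Pim1 (STAT3 and STAT5 lists) and Il4ra (STAT3 and STAT6 lists). Which STAT acted on a target was not tested. All 20 interferon genes of the STAT2 complex fell (median log2 change -3.77), and of 18 STAT3 and interleukin-10 targets 3 rose and 14 fell (median -0.81). Of 18 STAT6 targets 15 rose and 2 fell, with a median of 2.50 beside 0.40 for all tested genes (13 and 4 centred). Arg1, which encodes arginase 1, had the largest log2 change of (TPM + 1) of these (6.67, from 28.2 ± 2.69 to 2959 ± 39.0 TPM). Retnla, a marker of alternatively activated macrophages, went from 0.78 ± 0.28 to 164.5 ± 9.63 TPM (log2 change 6.55). By the ratio of mean TPM the change of Retnla was the larger, since the added 1 understates low genes. Egr2, a zinc finger transcription factor, went from 4.01 ± 0.23 to 216.1 ± 6.58 TPM. Of 11 STAT5 targets 4 rose and 5 fell (4 and 7 centred). Ccnd1 rose by a log2 change of 3.19 and Socs2 by 1.88, from 2.41 ± 0.20 to 11.6 ± 0.46 TPM, while Pim1 fell by 2.37 on the log2 scale. Among the other 5 Socs genes 4 rose and 0 fell (3 and 1 centred). Among the 10 other brakes 4 rose and 3 fell (1 and 7 centred), with Ptpn1 lower by -1.88 on the log2 scale. Of the 9 marker lists, 3 had sums that did not overlap between LPS and LPS_NZM. Endothelial markers went from 35.5 to 39.7 TPM summed in LPS to 74.8 to 78.4 TPM, with 2 of 4 genes higher and 1 lower (1 and 2 centred), and Pecam1, which macrophages also express, held most of it at 55.9 TPM. Dendritic cell markers went from 25.5 to 33.9 TPM down to 7.10 to 8.65 TPM. Of 3 tested genes on this list 1 was higher and 1 lower (1 and 1 centred). Ccr7 averaged 21.7 and 1.74 TPM, while Zbtb46 averaged 1.43 and 4.93 TPM. Mast cell and basophil markers went from 207.5 to 232.8 TPM down to 113.3 to 199.9 TPM. Of the 6 genes on that list 0 were higher and 1 lower (0 and 1 centred), with Hdc at 76.0 and 5.92 TPM.

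LPS_NZM against Control shows how far the genes lay from their level without either treatment. All 9 differed, beside 47.7% of tested genes (18.6% higher and 29.1% lower, or 24.9% and 22% centred), and none overlapped between the groups, as held for 55.9%. Only the feedback genes reached an absolute log2 change of 1, which 4.49% of tested genes did. These 3 lay above Control. Cish did so 35.2-fold (log2 change 4.60, SE 0.08), Socs1 22.5-fold (3.96, SE 0.10) and Socs3 3.86-fold (1.89, SE 0.13, or 2.09 without Control replicate 3), by means. Of the STAT genes only Stat5a was higher (log2 change 0.52, SE 0.07). Stat2 (-0.78, SE 0.03), Stat4 (-0.86, SE 0.13), Stat5b (-0.32, SE 0.06) and Stat6 (-0.26, SE 0.04) were lower on both scales. Stat3 was nearly back at its Control level (log2 change -0.12, SE 0.03, limma adjusted p = 0.014). Its difference was -0.04 after centring (limma adjusted p = 0.40) and was no longer called without Control replicate 2 (limma adjusted p = 0.05, just above the threshold).

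**Figure D3:**
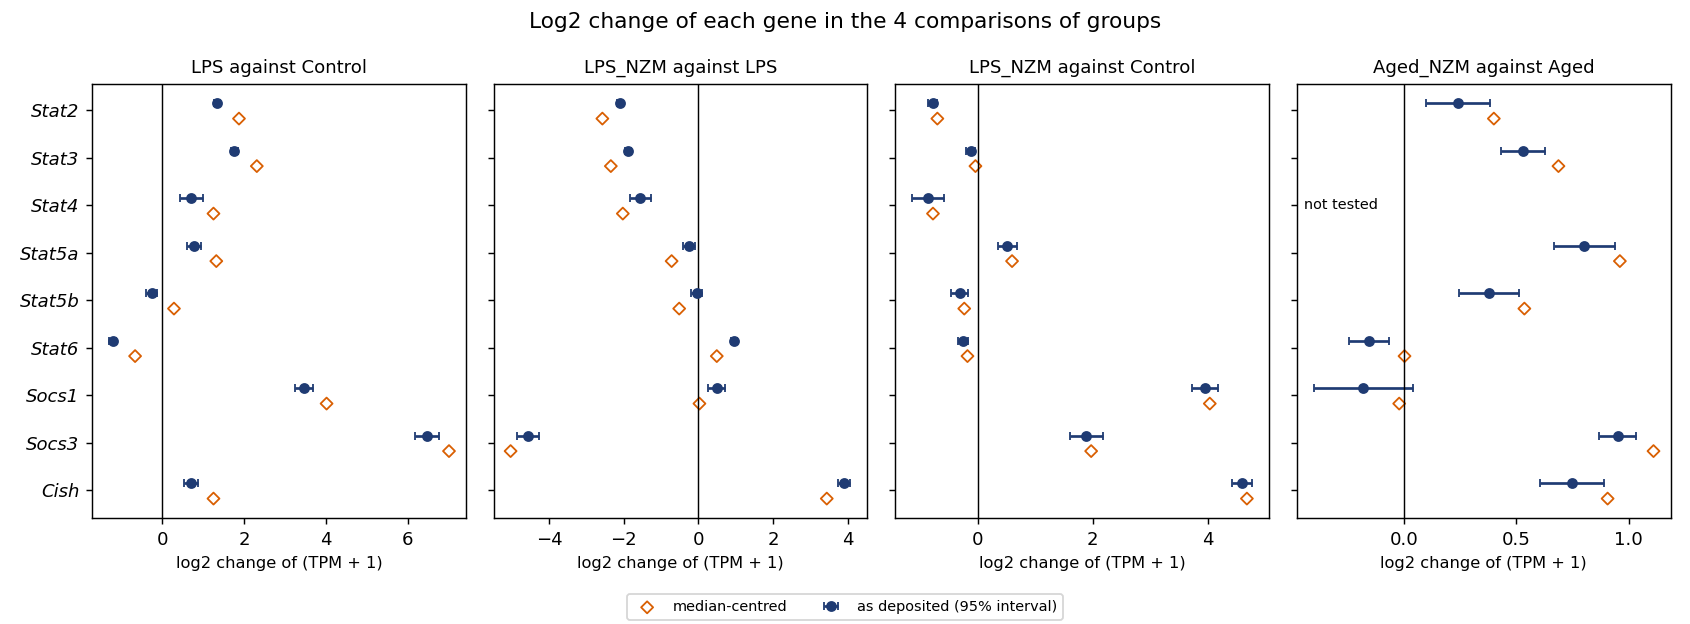
Log2 change of (TPM + 1) of the 9 genes (vertical axis) in the 4 comparisons of groups, on horizontal axes of different range. Filled circles with 95% intervals are values as deposited and open diamonds are median-centred values. Stat5b in LPS against Control crosses 0 between the scales (-0.27 and 0.28), and Socs1 in LPS_NZM against LPS moves from 0.49 to 0.03.

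The make-up of the SOCS family (Cish and Socs1 to Socs7) differed between the groups. The 8 genes summed to 109.5 ± 5.95 TPM in Control, 1229 ± 8.73 TPM in LPS and 278.2 ± 4.43 TPM in LPS_NZM. Socs3 made up 11.1 ± 2.54% of the sum in Control, 92.6 ± 0.24% in LPS and 16.9 ± 0.69% in LPS_NZM. Cish went from 1.95 ± 0.32% and 0.33 ± 0.02% to 26.9 ± 1.04%, which made it the largest share in LPS_NZM. Socs5 held the largest share in Control (30.9 ± 0.26%), in Aged (39.6 ± 0.20%) and in Aged_NZM (39.1 ± 0.43%). In the BMSC the family summed to 238.4 ± 5.37 TPM in Aged and 280.4 ± 2.04 TPM in Aged_NZM, and Socs3 held 17.3% to 18.8% and then 29.9% to 30.2%.

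**Figure D4:**
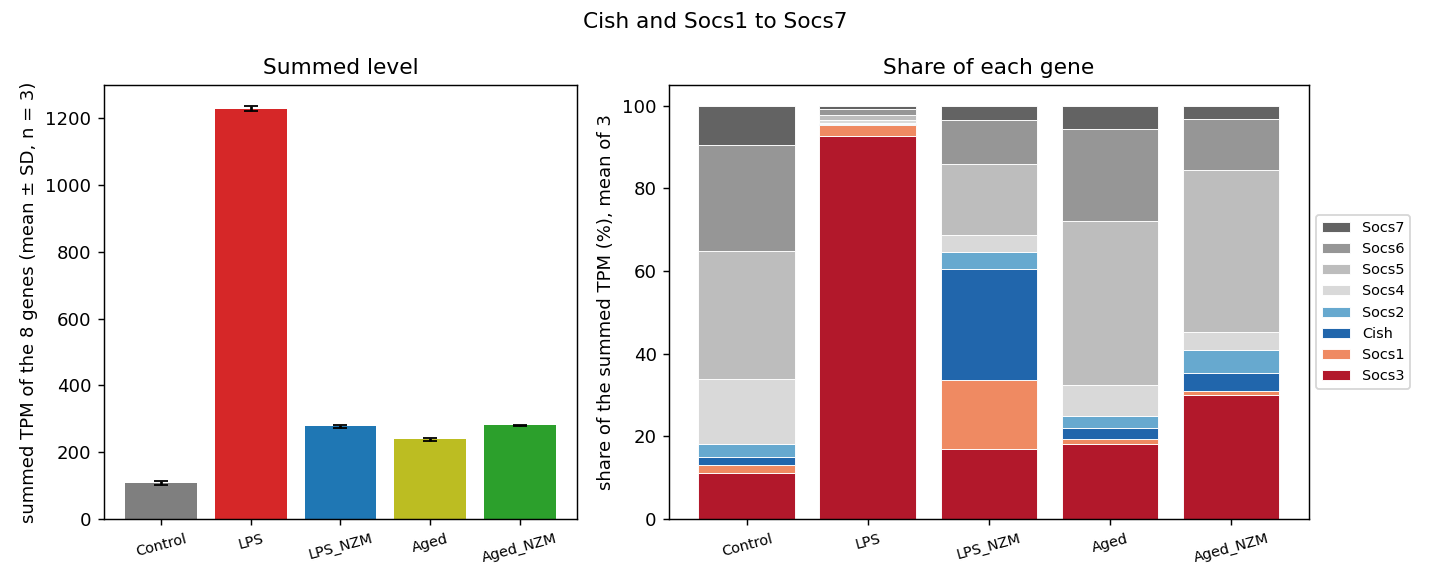
Summed TPM of Cish and Socs1 to Socs7 (left, vertical axis from 0, mean ± SD of 3 libraries) and the mean share of each gene in that sum in percent (right), by group. Socs3 fills 92.6% of the sum in LPS, and Cish, at 26.9%, is the largest part in LPS_NZM.

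The make-up of the STAT genes differed as well. The 6 of them summed to 385.2 ± 9.19 TPM in Control, 611.2 ± 12.7 TPM in LPS and 307.3 ± 4.97 TPM in LPS_NZM. Stat6 was 44.4 ± 0.74% of this sum in Control, 11.9 ± 0.35% in LPS and 46.4 ± 0.82% in LPS_NZM, while Stat3 was 17.2 ± 0.24%, 37.1 ± 0.19% and 19.8 ± 0.56%. Ratios within a library do not depend on the scaling. Stat5a over Stat5b was 0.51, 0.54 and 0.52 in Control and 1.03, 1.20 and 1.11 in LPS, so Stat5a went from the lower to the higher paralog, within the limit that shared reads set. In LPS_NZM the ratio was 1.03, 0.90 and 0.95. Cish over Socs3 was 0.0036 ± 2.0e-04 in LPS and 1.59 ± 0.13 in LPS_NZM. Socs3 over Stat3 was 0.19 ± 0.05 in Control, 5.02 ± 0.07 in LPS and 0.78 ± 0.04 in LPS_NZM. Each of 4 ratios was compared in 4 pairs of groups, without overlap in any of the 16. Each 2-sided exact permutation p was 0.1 (0.1 after Benjamini-Hochberg adjustment), the smallest that 3 against 3 libraries allow. Ratios of other gene pairs were not counted, so the 16 have no background here. Of single tested genes 55.9% to 81.8% did not overlap in these comparisons.

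For each feedback gene the genes most like it were taken by the Pearson correlation of log2(TPM + 1) over the 9 BMDM libraries, among 10484 genes. With only 3 groups behind the 9 libraries, r mainly describes the order and spacing of the group means. Closest to Socs3 were Ccl4, a chemokine (r = 1.00; 23.1, 1652 and 80.4 TPM on average in Control, LPS and LPS_NZM), Lacc1 and Fcgr4. Closest to Cish were Pdcd1lg2, which encodes the PD-1 ligand PD-L2 (r = 0.998; 0.32, 1.24 and 78.1 TPM), Rars and Zbtb5. Pdcd1lg2 is also on the STAT6 list. Closest to Socs1 were Ier3, an immediate early gene (r = 0.998; 76.8, 362.3 and 434.0 TPM), Nfil3 and Ms4a4a.

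Aged_NZM against Aged asks the same of the BMSC. Stat2, Stat3, Stat5a, Stat5b, Socs3 and Cish rose with NZM and Stat6 fell slightly. Stat4 was listed at 0 in 4 of the 6 libraries and at 0.04 TPM in the others, so it was not tested. Of the 9 T and NK cell markers 8 were at 0 in both groups. Of the 8 tested genes 7 were called, beside 70.5% of 13865 tested (21.6% higher and 48.9% lower), and 6 of the 7 were higher. Centred, 6 were higher and 0 lower, beside 31.1% and 35.4%. Their median log2 change was 0.45 and that of all tested genes was -0.18. As deposited, none reached an absolute log2 change of 1, which 7.85% of tested genes did. After centring the change of Socs3 was 1.11. All 8 were without overlap between the groups, beside 73.8% of tested genes.

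Socs3 read 42.2, 44.0 and 42.8 TPM in Aged and 84.7, 84.4 and 83.4 TPM in Aged_NZM (1.96-fold, log2 change 0.95, SE 0.04, limma adjusted p = 2.76e-08). Cish went from 6.96, 6.96 and 6.64 to 12.4, 12.3 and 11.8 TPM (log2 change 0.75, SE 0.06, limma adjusted p = 4.18e-06). Both feedback genes were higher in every Aged_NZM library. Socs1 was low, at 2.84, 2.92 and 2.92 TPM in Aged and 2.63, 2.44 and 2.24 TPM in Aged_NZM. Its groups did not overlap, but its change was not called (log2 change -0.18, 95% interval -0.40 to 0.04, limma adjusted p = 0.13).

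Stat3 was the most abundant STAT gene in BMSC, at 94.5, 85.4 and 86.5 TPM in Aged and 129.4, 127.3 and 128.5 TPM in Aged_NZM (log2 change 0.53, SE 0.04, limma adjusted p = 4.00e-06). Stat5a read 13.2, 11.8 and 12.7 TPM and then 23.6, 22.2 and 22.1 TPM (log2 change 0.80, SE 0.06), and Stat5b 14.4, 14.3 and 14.7 TPM and then 20.5, 18.3 and 18.5 TPM (log2 change 0.38, SE 0.06). None of the 3 overlapped between the groups. Stat2 was low in BMSC, at 19.5, 17.1 and 19.0 TPM in Aged and 21.3, 21.7 and 23.1 TPM in Aged_NZM (log2 change 0.24, SE 0.06). Stat6 went from 81.4, 76.4 and 80.7 to 72.3, 71.4 and 69.7 TPM (log2 change -0.16, SE 0.04, limma adjusted p = 0.0056), and this fall was 0.00 after centring.

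Of 17 tested receptor chains in BMSC 13 rose with NZM and 2 fell (13 and 0 centred, median log2 change 0.33). Il6st rose from 137.0 ± 10.4 to 279.2 ± 6.75 TPM. Osmr, the oncostatin M receptor that pairs with gp130, rose from 98.9 ± 2.87 to 221.1 ± 3.62 TPM, and Il4ra from 23.3 ± 0.87 to 45.9 ± 1.63 TPM. Il10 and Il10ra were listed at 0 in all BMSC libraries. Of 7 tested ligands 3 rose and 4 fell. Il6 rose from 87.5 ± 2.05 to 159.7 ± 9.66 TPM, while Lif, the leukaemia inhibitory factor of the same family, fell from 38.3 ± 2.23 to 12.6 ± 0.63 TPM. Jak2 rose (26.4 ± 0.89 to 38.8 ± 2.16 TPM), and the other 3 JAK genes were not called, though 3 of the 4 were higher after centring.

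Of 17 tested STAT3 and interleukin-10 targets 9 rose and 5 fell in BMSC (11 and 5 centred). Ccr1, a chemokine receptor, had the largest change, a fall from 20.8 ± 1.13 to 0.53 ± 0.13 TPM (log2 change -3.83, limma adjusted p = 2.09e-09). Sphk1, a sphingosine kinase, rose by a log2 change of 2.29 and Timp1, a metalloproteinase inhibitor, by 1.22. Of 9 STAT5 targets 2 rose and 6 fell (3 and 6 centred). Socs2 was higher (6.62 ± 0.22 to 15.8 ± 0.28 TPM), and Cdkn1a and Ccnd1 were lower by -2.02 and -1.39 on the log2 scale. The 8 tested STAT6 targets gave 3 rises and 4 falls, and the 17 tested interferon genes 6 and 6 (9 and 5 centred). Of 5 other Socs genes 2 rose and 3 fell, and of 9 other brakes 4 rose and 5 fell (4 and 3 centred). Stromal markers rose with NZM in 9 of 10 tested genes, in the same libraries in which Socs3, Cish and Stat3 were higher, and their part in these results was not tested.

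The NZM responses were set against each other in a fit of all 15 libraries, as the change in BMSC minus the change in BMDM. All 9 genes differed, beside 72% of 16696 tested genes (17.2% higher and 54.8% lower), and 8 of them still did so after centring, beside 68.6%, the exception being Socs1. Of the 8, 6 were higher in BMSC and 2 lower, beside 39.9% and 28.7% of tested genes. At an absolute log2 change of at least 1, 7 of the 9 differed, beside 33.1%. The difference was largest for Socs3 (5.52, SE 0.16, limma adjusted p = 6.56e-13), which fell in BMDM and rose in BMSC. Stat2 (2.35, SE 0.07), Stat3 (2.41, SE 0.05) and Stat5a (1.06, SE 0.09) also fell in BMDM and rose in BMSC. Stat6 (-1.11, SE 0.05) rose in BMDM and fell slightly in BMSC, a fall that was not called after centring. Cish rose in both, by less in BMSC (-3.16, SE 0.09, limma adjusted p = 6.89e-13), as did Socs2 (-0.74, SE 0.09), whose difference was not called after centring. Stat4, at 0 to 0.04 TPM in BMSC, differed through its BMDM change alone. The pretreatments also differed, so cell type and pretreatment cannot be told apart.

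**Figure D5:**
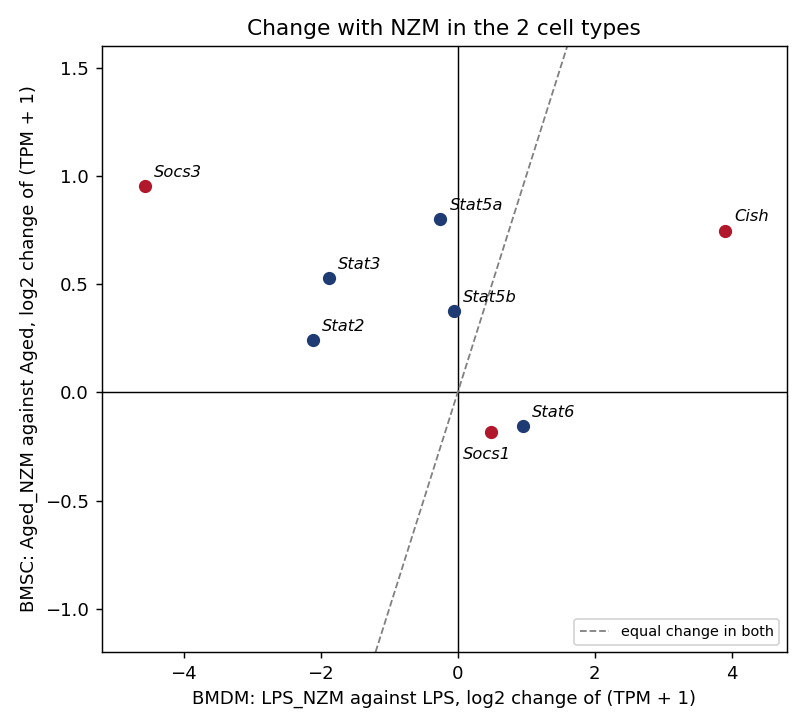
Log2 change of (TPM + 1) with NZM in BMDM (LPS_NZM against LPS, horizontal) and in BMSC (Aged_NZM against Aged, vertical) for the 8 genes tested in both, with STAT genes in blue and feedback genes in red. The axes have different ranges, and the dashed line marks equal change. Socs3 lies at -4.57 and 0.95, and Cish at 3.90 and 0.75.

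Across the 5 groups the level of each gene followed its own order. Stat2 descended from LPS over Control, LPS_NZM and Aged_NZM to Aged, and no neighbours in that order overlapped. Stat3 was highest in LPS, followed by Aged_NZM, Aged, Control and LPS_NZM, also without overlap. Stat6 was highest in Control and LPS_NZM, while Aged, LPS and Aged_NZM (79.5, 72.97 and 71.1 TPM on average) overlapped with their neighbours. Stat5a in Aged_NZM overlapped that in LPS_NZM, and Stat5b in LPS that in LPS_NZM. Socs3 was ordered LPS, Aged_NZM, LPS_NZM, Aged and Control, and Cish LPS_NZM, Aged_NZM, Aged, LPS and Control, with no overlap between neighbours. Socs1 in Aged_NZM overlapped Control. Differences in level between the cell types were not tested.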

How the data were processed

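The TPM were computed by the authors and deposited in 1 table, with 56979 mouse gene identifiers and 15 libraries. Per the submitters' processing notes, RSEM, StringTie, HISAT2 and fastp were used, with the build GRCm39. Versions and the annotation are not given in the sources used here. Libraries were polyadenylated RNA, per the labels' protocols. Symbols came from a gene name table, which matched 52072 identifiers.

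Values were analysed as log2(TPM + 1), which understates the change of low genes, with limma 3.58.1 in R 4.3.3 (eBayes with a mean-variance trend, 2-sided). Genes needed at least 1 TPM in at least 3 libraries of the fit. The 9 BMDM libraries, the 6 BMSC libraries and, for the difference of NZM responses, all 15 were fitted. P-values were Benjamini-Hochberg adjusted over all tested genes of a comparison, and the procedure was tested on simulated data. Alternatives were median centring, quantile normalization, no filter, a minimum of 5 TPM, 0.1 as the pseudocount, no trend, a replicate block, other libraries in the fit, an absolute log2 change of at least 1, and leaving out each library.

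The genes and pathway lists were chosen with earlier results of these data known. All 9 genes are reported. Of each list at most 4 called genes per comparison with the largest changes are named if the higher group averages 5 TPM or more, besides Jak1, Jak2, Jak3, Tyk2, Socs2, Il6, Il10, Il4ra, Il10ra and Il6st. Il4 and the single marker genes were named after their values were seen.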

Additional observations from a re-analysis of the deposited data

Results flagged for a closer look

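The change with NZM differed between BMSC and BMDM for all 9 genes in the fit of all 15 libraries (limma, Benjamini-Hochberg adjusted), where 72% of tested genes differed. As the log2 change in BMSC minus that in BMDM, the differences were 2.35 for Stat2, 2.41 for Stat3, 1.56 for Stat4, 1.06 for Stat5a, 0.43 for Stat5b, -1.11 for Stat6, -0.67 for Socs1, 5.52 for Socs3 and -3.16 for Cish. Adjusted p-values ranged from 6.29e-14 for Stat3 to 4.04e-04 for Stat5b. For Socs1 the difference was -0.05 after centring (adjusted p = 0.73).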

How the results depend on the processing

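Of 713 changes of single genes recomputed under the alternatives, 677 kept direction and call, 28 were no longer called, 3 became called and 5 changed sign. The sign changes were Stat5b in LPS against Control (0.28 after median centring, 0.18 after quantile normalization), Stat5b in LPS_NZM against LPS without LPS_NZM replicate 1 (leave-one-out range -0.089 to 0.0055) and Stat6 in Aged_NZM against Aged (0.0014 centred, 0.033 after quantile normalization). Of the 28 losses, 22 came from requiring an absolute log2 change of at least 1, which by construction leaves 5, 5, 3, 0 and 7 called genes in LPS against Control, LPS_NZM against LPS, LPS_NZM against Control, Aged_NZM against Aged and the difference of NZM responses, in place of 9, 8, 9, 7 and 9. It also leaves 24.3%, 22.3%, 4.49%, 7.85% and 33.1% of all tested genes, in place of 80.8%, 77.3%, 47.7%, 70.5% and 72%. Leave-one-out fits gave 9, 8, 8 to 9, 7 and 9 called genes, the lowest in LPS_NZM against Control without Control replicate 2. Deviations of same-numbered replicates correlated at 0.15, 0.02 and 0.20 in LPS_NZM against Control (numbers 1 and 3 best with their own) and from -0.08 to 0.04 in the other comparisons. In none did every number correlate best with itself, so the numbers were not taken to pair the libraries. With the replicate block the called genes numbered 9, 8, 9, 7 and 9, and the genes called in all went from 11705 to 11683, 11197 to 11089, 6915 to 6681, 9774 to 9688 and 12020 to 11935. Without known depth no counting error can be given for low genes. These include Stat4, Cish in Control and LPS and, outside LPS-treated BMDM, Socs1. The fold differences of Cish from Control and LPS rest on such low values.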
